A study of Mus musculus with 48 samples.

Results

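The type I hair keratins described here were Krt31, Krt32, Krt33a, Krt33b, Krt34, Krt35, Krt36, Krt39 and Krt40, which are 9 of the 46983 genes listed in each of the 2 deposited expression tables. They were chosen by gene symbol, and all 9 passed the filter on low values in both tables. The data came from whole skin of C57BL/6 mice, taken from the chin, the ventrum and the dorsum at 6 labelled hair cycle stages. These were competent and refractory telogen, catagen, and anagen divided into early, mid and late. The skin table holds 43 libraries in 18 groups of 2 or 3. The ear table holds 7 libraries, with 2 of telogen ear skin, 3 of the ear cartilage/muscle complex and the same 2 dorsal competent telogen libraries as in the skin table. No transgene or treatment is named for these groups, and the labels used here state neither an age, nor whether replicates came from separate mice or from pools. The p-values therefore measure the spread between these libraries, which may be technical in part.

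Hair keratins are the intermediate filament proteins of the hair shaft. An acidic type I keratin pairs with a basic type II keratin, and the filaments are then embedded in keratin-associated proteins as cells leave the hair matrix, the dividing tissue at the base of the growing follicle. Shaft cells are made in anagen, when the follicle grows, production ends in catagen, when it regresses, and the follicle rests in telogen with a finished club hair. Krt35 is known to appear early, in cells just above the matrix and in the cuticle, Krt32 and Krt40 are cuticle keratins, and Krt31, Krt33a, Krt33b and Krt34 belong to the cortex, the bulk of the shaft. Krt39 is a keratin of the upper shaft, and Krt36 is also known from the tongue papillae and the nail.

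All 9 genes lie on the minus strand of chromosome 11 in GRCm38, in a pair of clusters. Krt39 and Krt40 occupy chr11:99514114-99543158, and Krt33a, Krt33b, Krt34, Krt31, Krt32, Krt35 and Krt36 follow in that order in chr11:100011195-100105626. Each has 7 exons except Krt39, which has 8. Krt31, Krt33a, Krt33b and Krt34 are close copies. Their coding sequences were 87.4% to 93.3% identical, with Krt33a and Krt33b the closest pair, against a median of 67.4% over all 36 pairs of members. Between 21.9% and 33.1% of the 50-base words of their transcripts recur in another member, against 3.95% for Krt35, 0.432% for Krt36 and 0 for Krt32, Krt39 and Krt40. Fragments from such words can be split among the copies by the quantification, so differences among these 4 genes are uncertain, while their common level is less affected. Krt32 overlaps the antisense gene Gm11571, and the libraries are not stated to be stranded, so reads of this pair cannot be told apart. Gm11571 was listed at 0.57 to 9.34 FPKM in the skin libraries, where Krt32 was 37.2 to 195.0 times higher.

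RefSeq promoters were matched for 7 of the 9 genes, all but Krt33a and Krt35. The windows of 4 of them are printed as the 250 bases before the start, 5′ to 3′ on the minus strand of GRCm38.p6, because Krt31, Krt33b and Krt32 hold the same 3 stretches of letters at similar places, and Krt36, with its own peak in ventral early anagen, holds 1 of them. The windows were picked after the sequences had been seen, those of Krt31, Krt33b and Krt32 not for how alike the genes' levels were. That of Krt36 was picked with its peak known. A link between the stretches and the levels was not tested. Capitals mark the 5 stretches of letters described after them, which were chosen once the sequences had been seen and were searched on both strands. The windows are, in order, chr11:100050552-100050801, chr11:100029869-100030118, chr11:100088270-100088519 and chr11:100105627-100105876.
Krt31: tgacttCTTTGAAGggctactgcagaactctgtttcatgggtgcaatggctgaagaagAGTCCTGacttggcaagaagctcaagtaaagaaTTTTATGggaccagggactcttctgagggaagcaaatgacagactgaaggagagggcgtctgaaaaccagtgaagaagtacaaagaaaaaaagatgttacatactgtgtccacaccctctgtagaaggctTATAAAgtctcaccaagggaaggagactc
Krt33b: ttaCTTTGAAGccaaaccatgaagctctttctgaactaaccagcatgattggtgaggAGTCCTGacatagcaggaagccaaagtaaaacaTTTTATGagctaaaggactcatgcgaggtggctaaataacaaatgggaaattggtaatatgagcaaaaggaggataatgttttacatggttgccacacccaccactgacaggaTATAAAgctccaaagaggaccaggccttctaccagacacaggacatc
Krt32: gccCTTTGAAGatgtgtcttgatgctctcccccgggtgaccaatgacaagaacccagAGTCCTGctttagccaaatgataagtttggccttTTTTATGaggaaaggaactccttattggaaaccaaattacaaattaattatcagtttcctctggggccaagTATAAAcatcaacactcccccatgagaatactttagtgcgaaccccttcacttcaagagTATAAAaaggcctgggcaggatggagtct
Krt36: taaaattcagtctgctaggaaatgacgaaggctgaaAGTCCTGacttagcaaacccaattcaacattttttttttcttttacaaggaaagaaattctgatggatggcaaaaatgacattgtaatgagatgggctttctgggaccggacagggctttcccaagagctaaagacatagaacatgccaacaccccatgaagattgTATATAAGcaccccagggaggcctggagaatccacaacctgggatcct

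CTTTGAAG was found in 5 of the 7 windows and in 1.42% of the 32851 windows of that length in the table, and it begins 240 to 247 bases before the start in Krt31, Krt32, Krt33b and Krt34. Krt36 and Krt40 lack it, and Krt39 carries it on the opposite strand beside the start. AGTCCTG was found in 5 of the 7 and in 4.75% of all windows, and TTTTATG in 6 of the 7, all but Krt36, and in 3.77% of all windows. The letters TATAAA were present in 5 of the 7 and in 12.4% of all windows. Krt36 and Krt39 instead hold TATATAAG, found in 0.935% of all windows. The first 3 of these stretches stood together in 4 windows of 32851 (0.0122%), of which 3 were Krt31, Krt32 and Krt33b. These are matches of letters in related gene copies, and binding of any factor to them was not tested.

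Depth, estimated from the steps that whole fragments leave in the FPKM values, was 6768601 to 26266500 fragments in the skin libraries, with a median of 13174648, and 6974735 to 29793623 in the 5 ear libraries. No replicate pair was identical, and the mean chi-square over genes of the 32 replicate pairs was 2.19 to 15.2, above the value near 1 that sampling noise alone would give. Several libraries went against their stage labels or stood close to another group, and all stages named below are those of the labels. One of the 2 ventral catagen libraries carries an ear location in a further label, and was kept in ventral catagen by its title and source name. The 2 dorsal competent telogen libraries resembled the 2 chin late anagen libraries. Only 2 of 21257 genes (0.00941%) differed between these groups, whereas the 36 designed comparisons called at least 2.14% of genes. Their mean chi-square, 2.52 to 3.56, lay within that of replicate pairs of the same group. None of the 9 hair keratins differed between them past the threshold, nor at an unadjusted p under 0.05, with log2 differences from -0.09 to 0.05. The summed FPKM of 6 proliferation genes (Mki67, Top2a, Ccna2, Ccnb1, Cdk1 and Birc5) was 283 to 309 in chin and 312 to 366 in ventral competent telogen, but 28.5 to 40.8 in ventral early anagen, the lowest of the 18 groups. In refractory telogen it was 40.6 to 57.5 in all 3 domains. All 9 inner root sheath genes listed were measured in every skin group, and their sum in dorsal competent telogen, 24032 to 24370 FPKM, was within the span of chin and ventral late anagen, 23213 to 24770.

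The level of the 9 genes in the 43 skin libraries differed widely. On the FPKM scale, which is per transcript length, the median library held 1982 FPKM of Krt33a, 1401 of Krt33b, 1061 of Krt31, 818 of Krt35, 488 of Krt34, 352 of Krt32, 71.4 of Krt40, 37 of Krt36 and 19.6 of Krt39. Together they took 0.124% of all transcripts in dorsal early anagen and 0.925% in chin mid-anagen, after rescaling each library to a common sum. Between the highest and the lowest group mean, Krt34 varied 98.2-fold, Krt33b 35.7-fold, Krt33a 27.7-fold, Krt39 17.8-fold, Krt31 15.6-fold, Krt35 12.0-fold, Krt36 8.69-fold, Krt40 7.71-fold and Krt32 4.62-fold. Dorsal early anagen was the lowest group for 7 of the 9, and ventral early anagen for Krt32 and Krt35. In whole skin, fewer cells of a type and less RNA per cell cannot be told apart.

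**Figure D1:**
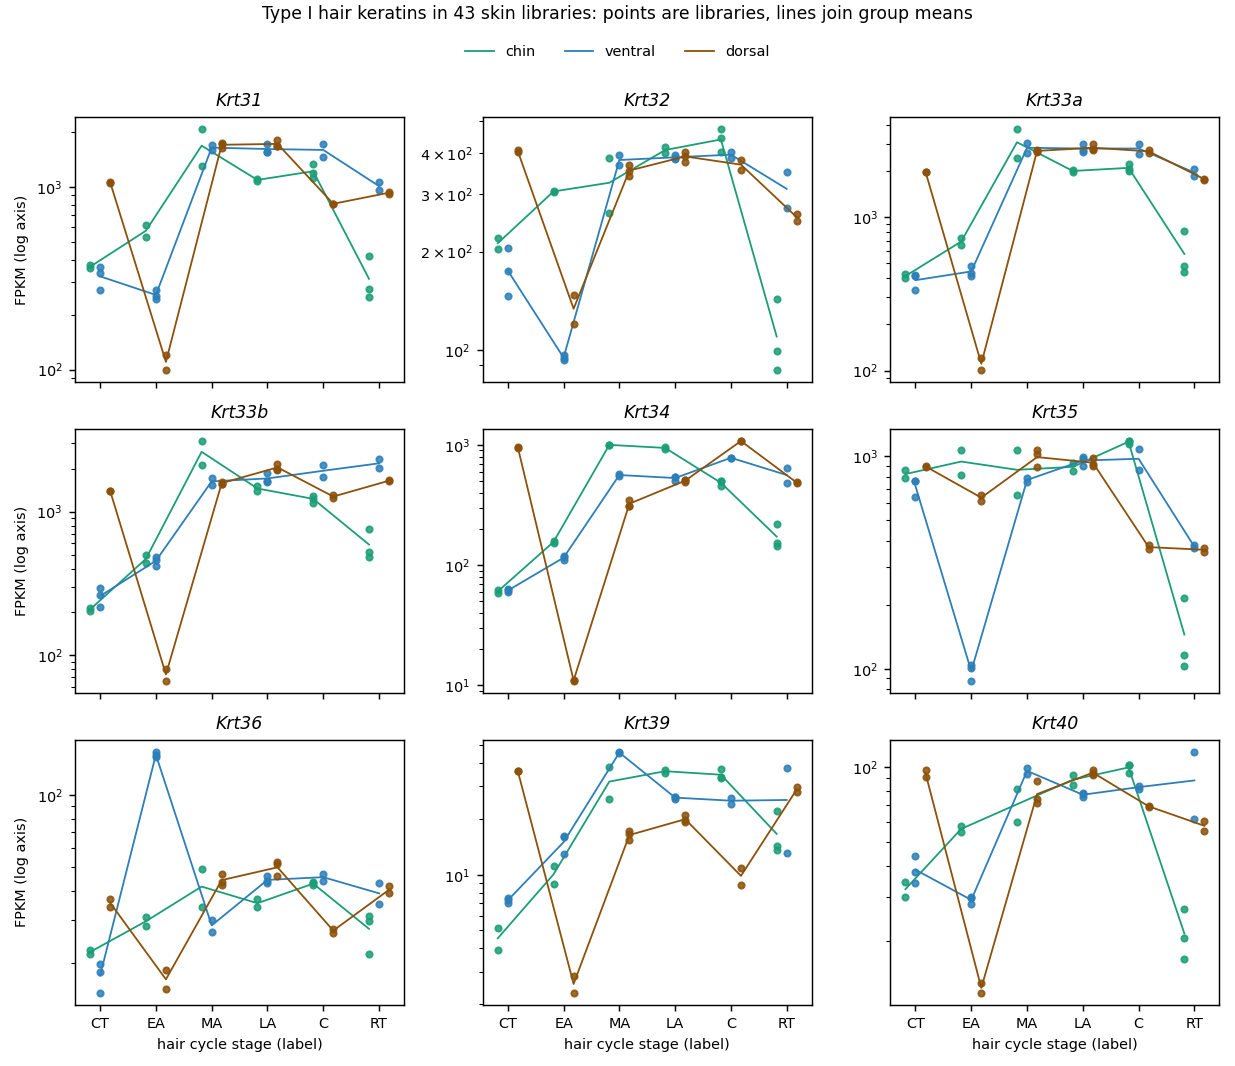
FPKM on a log axis of each type I hair keratin in the 43 skin libraries, by labelled stage (CT competent telogen, EA early anagen, MA mid-anagen, LA late anagen, C catagen, RT refractory telogen) and domain. Points are libraries and lines join the group means. Dorsal early anagen is the lowest group of 7 genes, whereas Krt36 peaks in the 3 ventral early anagen libraries at 145 to 152 FPKM.

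Of the cortex keratins, Krt34, Krt33b and Krt33a varied more between groups than any other member, while Krt31 varied less than Krt39. Krt34 was at 10.9 and 11.1 FPKM in dorsal early anagen, at 59.0 to 63.3 in the 5 chin and ventral competent telogen libraries, and at 1070.0 and 1086 in dorsal catagen. Krt34 in the dorsal competent telogen libraries was 965 and 947 FPKM, beside 969 and 921 in chin late anagen. The 2 dorsal early anagen libraries were the lowest of all 43 and did not overlap with any other group. Krt33a, the most abundant member, was 120 and 101 FPKM in dorsal early anagen. It was 402 to 423 FPKM in chin and 333 to 418 in ventral competent telogen, 412 to 479 in ventral early anagen, and 2404 to 3731 in the mid-anagen libraries of the 3 domains. The mid-anagen ranges of the domains overlapped, and the chin mid-anagen pair, 3731 and 2404, held the widest spread. Krt33b followed the same course, from 80.5 and 65.9 FPKM in dorsal early anagen to 3127 and 2102 in chin mid-anagen. Unlike Krt33a it stayed high in ventral refractory telogen, at 2326 and 2021 FPKM, second among the 18 group means. Krt31 ranged from 120 and 100.1 FPKM in dorsal early anagen to 1801, 1678 and 1681 in dorsal late anagen.

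Krt35, the early shaft keratin, had its low point in ventral early anagen, as had Krt32, and not in dorsal early anagen. In dorsal early anagen it stood at 659 and 617 FPKM, while it was at 87.6, 100.4 and 105 in ventral early anagen. The next lowest were the chin refractory telogen libraries, at 116, 215 and 103. Dorsal catagen and ventral and dorsal refractory telogen formed a tight middle band of 355 to 381 FPKM, and the libraries of all other groups lay between 617 and 1184. Krt35 in competent telogen was 789.7 and 859 FPKM in chin, 640.0 to 768 in ventral and 889 and 902 in dorsal skin, so that the ranges stood close and the domains did not differ past the threshold (F-test in limma, adjusted p = 0.348).

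The cuticle keratins Krt32 and Krt40 varied less. Krt32 was lowest in ventral early anagen, with 96.6, 93.4 and 94.9 FPKM, and in chin refractory telogen, with 99.8, 143 and 87.4, which overlap. It reached 472, 402 and 443 FPKM in chin catagen. Krt40 was 13.5 and 12.4 FPKM in dorsal early anagen, apart from every other library, and 102, 94.2 and 102 in chin catagen. In ventral refractory telogen the pair of libraries disagreed for Krt40, at 61.8 and 115 FPKM, and for Krt39, at 13.2 and 37.6. The group means of these genes there are therefore poorly fixed. Krt39, the least abundant member, lay at 2.83 and 2.31 FPKM in dorsal early anagen and at 46.0 and 45.5 in ventral mid-anagen, its lowest and highest libraries.

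Krt36 was the member with its peak in ventral early anagen. It was 145, 152 and 147 FPKM in ventral early anagen and 15.0 to 52.4 in the other 40 libraries, so that this group did not overlap with any other. The ventral early anagen libraries also stood at the top for other epithelial genes. The 6 interfollicular epidermis markers (Krt5, Krt14, Krt1, Krt10, Krt2, Lor) summed to 10201 to 10677 FPKM there and to 2170 to 7594 in the other skin libraries. The 5 hair follicle bulge markers (Krt15, Cd34, Lgr5, Lhx2, Sox9) summed to 5788 to 6293 FPKM against 619 to 4651. The part of these cells in the Krt36 level was not tested.

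The order of the 18 group means held few separable neighbours, as a description since the order comes from the same values. Of the 17 neighbouring pairs, limma set apart 6 for Krt34, 3 each for Krt31, Krt33b, Krt35 and Krt40, 2 for Krt33a, 1 for Krt36 and 0 for Krt32 and Krt39. The step up from dorsal early anagen was set apart for Krt31, Krt33a, Krt33b, Krt34 and Krt40. For Krt36 the separable step was that between ventral early anagen and dorsal late anagen, the next group.

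The levels of all 9 genes depended on the stage in each domain. In F-tests over the 6 stages, 9 of 9 passed in chin, ventral and dorsal skin, where 66.2%, 70.2% and 68.5% of all 21257 tested genes passed. The course over the stages also differed between the domains for 9 of 9 (interaction test in limma, 73.3% of all genes), with the lowest adjusted p for Krt34, 5.87e-23, and the highest for Krt32, 4.38e-11. These shares of all genes are high, so that a count of 9 says little by itself, and the direction and size of each step follow.

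In chin skin most of the hair keratins climbed into mid-anagen, and all 9 dropped after catagen. From competent telogen to early anagen 6 of 9 rose, against 1.26% of all genes. The proliferation genes summed to 283 to 309 FPKM in the first of these groups and 261 to 337 in the second. Krt34 changed from 61.9 and 59.0 to 159 and 153 FPKM, a log2 fold change of 1.35 ± 0.12 (SE, adjusted p = 1.24e-08), and Krt33b rose by 1.17 ± 0.17. The other 4 calls, for Krt31, Krt33a, Krt39 and Krt40, were lost when any of the 4 libraries was left out, and that of Krt31 in 29 of the 43 fits without 1 library. Into mid-anagen 6 of 9 rose, against 3.66% of all genes. Krt34 reached 1005 and 998 FPKM, a log2 fold change of 2.68 ± 0.12 (adjusted p = 1.69e-15), and Krt33b rose by 2.45 ± 0.17. Krt32, Krt35 and Krt40 did not pass, with Krt35 at 818 and 1070.4 FPKM in early and 1069 and 657 in mid-anagen.

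Krt31, Krt33a and Krt33b then fell between mid- and late anagen (3 of 9, 12.3% of all genes lower), and the calls of Krt31 and Krt33a were lost without either late anagen library or without the mid-anagen library of the higher value. Into catagen Krt34 alone fell (4.19% of all genes lower), by 0.96 ± 0.11 on the log2 scale, and no member rose. Both of these steps use the chin late anagen libraries, which the dorsal competent telogen libraries resembled. From catagen to refractory telogen 9 of 9 fell, against 17.5% of all genes. Krt35 fell most, from 1145, 1184 and 1183 to 116, 215 and 103 FPKM, a log2 fold change of -3.08 ± 0.17 (adjusted p = 2.95e-14), and Krt36 least, at -0.63 ± 0.12. The 2 groups labelled telogen in the chin differed in both directions. The 6 proliferation genes summed to 283 to 309 FPKM in competent and 40.6 to 57.5 in refractory telogen, and their part was not tested. Krt33b, Krt34 and Krt39 were higher in refractory telogen (3 of 9, 17.8% of all genes), while Krt32, Krt35 and Krt40 were lower (3 of 9, 18.4%). In Krt35 this difference was -2.58 ± 0.19. The 6 skeletal muscle markers (Acta1, Ckm, Tnnt3, Mylpf, Tnnc2, Myh4) summed to 11517 to 18697 FPKM in chin refractory telogen and averaged 490.0 in chin competent telogen, and all 6 were higher. Their part in the chin differences was not tested.

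In ventral skin the early anagen libraries split the family. Relative to competent telogen, Krt33b, Krt34, Krt36 and Krt39 were higher (4 of 9, 13.2% of all genes), and Krt32, Krt35 and Krt40 were lower (3 of 9, 29.3%). Krt36 moved from 18.2, 19.8 and 15.0 FPKM to 145, 152 and 147, a log2 fold change of 3.00 ± 0.12 (adjusted p = 5.31e-18). Krt35 moved the other way, from 762, 768 and 640.0 to 87.6, 100.4 and 105 FPKM, a change of -2.88 ± 0.17 (adjusted p = 9.33e-14). The groups overlapped for neither gene. All 6 proliferation genes and all 8 listed hair matrix and shaft transcription factors (Hoxc13, Foxn1, Msx2, Lef1, Dlx3, Ovol1, Foxq1, Gata3) were lower in the early anagen libraries as well.

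Between ventral early and mid-anagen 8 of 9 rose (16.8% of all genes) and Krt36 fell (25.6%), by 2.33 ± 0.13 on the log2 scale. Krt35 rose by 2.98 ± 0.19 and Krt31 by 2.67 ± 0.16. Later steps were small. Into late anagen Krt36 rose by 0.62 ± 0.13 (12.6% of all genes higher) and Krt39 fell by 0.79 ± 0.23 (11.6% lower). Into catagen Krt34 rose by 0.56 ± 0.11 (2.83% of all genes higher). From catagen to refractory telogen Krt31, Krt33a, Krt34 and Krt35 fell (4 of 9, 18.8% of all genes), with -1.36 ± 0.21 for Krt35, while Krt33b was 2105 and 1751 FPKM before and 2021 and 2326 after. The refractory telogen libraries held more of 8 members than the competent telogen libraries (8.12% of all genes higher). Krt34 was 643 and 481 against 61.6, 63.3 and 59.5 FPKM, a log2 fold change of 3.16 ± 0.11 (adjusted p = 5.98e-19). Krt35 was lower there (34.5% of all genes lower), at -0.94 ± 0.19. The 5 dermal fibroblast markers (Col1a1, Col1a2, Col3a1, Dcn, Lum) fell as well, 5 of 5, from a sum of 5994 to 6165 to one of 2123 to 2702 FPKM, while 6 of 6 skeletal muscle markers were higher. The part of these cells was not tested.

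In dorsal skin the largest steps of every member but Krt35 fell on either side of early anagen. Between the libraries labelled competent telogen and early anagen 8 of 9 fell, against 8.24% of all genes. Krt34 went from 965 and 947 to 10.9 and 11.1 FPKM, a log2 fold change of -6.32 ± 0.12 (adjusted p = 1.17e-25), Krt33b fell by 4.24 ± 0.17 and Krt33a fell by 4.15 ± 0.19. Krt35 did not pass, at 902 and 889 against 659 and 617 FPKM (adjusted p = 0.0623). This comparison rests on the dorsal competent telogen libraries that resembled chin late anagen, and it cannot be made without them. From early to mid-anagen, which does not use them, 9 of 9 rose, against 9.09% of all genes. Krt34 reached 313, 310.2 and 350 FPKM, a log2 fold change of 4.76 ± 0.11 (adjusted p = 1.73e-23), Krt33a rose by 4.60 ± 0.17 and Krt35 by 0.63 ± 0.19. The dermal fibroblast markers summed to 5120 to 5137 FPKM in dorsal early anagen, 1241 in competent telogen and 969 to 1041 in mid-anagen. At both steps 5 of 5 were past the threshold, against 43.4% and 39.2% of all genes in either direction. Their part in these steps was not tested.

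The dorsal libraries then diverged by gene. Differences among the close copies Krt31, Krt33a, Krt33b and Krt34 remain uncertain here, since fragments can be split among them. Krt34 rose again into late anagen, the 1 of 9 that did (1.15% of all genes), and into catagen (20% of all genes higher), from 494, 507 and 512 to 1070.0 and 1086 FPKM. Krt31, Krt33b, Krt35, Krt36, Krt39 and Krt40 fell at that step (6 of 9, 18.7% of all genes). Krt35 fell from 981, 916 and 900.2 to 381 and 366 FPKM, by 1.32 ± 0.19 on the log2 scale, and Krt33a, at 2974, 2713 and 2789 before and 2612 and 2742 after, did not pass. At this step the skeletal muscle markers summed to 436 to 460.0 FPKM before and 3129 to 3195 after, 6 of 6 higher, and the epidermis markers to 4242 to 4308 before and 2170 to 2212 after, 3 of 6 lower, and their part in it was not tested. From catagen to refractory telogen Krt32, Krt33a and Krt34 fell (3 of 9, 24.5% of all genes) and Krt36 and Krt39 rose (2 of 9, 19.1%). Compared with the dorsal competent telogen libraries, those of refractory telogen were lower in Krt32, Krt34, Krt35 and Krt40 (4 of 9, 11.3% of all genes).

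The domains differed most at competent telogen, early anagen and refractory telogen. The F-test over the 3 domains was passed by 8 of 9 members in competent telogen libraries (54% of all genes) and by 9 in those of refractory telogen (42.2%). In anagen 9 members passed at the early stage (51.6%), but 4 at the mid stage (38.1%) and 4 at the late stage (20.8%). In catagen libraries 7 passed (42.9%). At competent telogen the dorsal libraries were higher than chin for 8 of 9 (9.29% of all genes) and higher than ventral for the same 8 (9.89%), all but Krt35. Krt34 was 965 and 947 FPKM in dorsal skin against 61.9 and 59.0 in chin, a log2 difference of 3.96 ± 0.12. Skeletal muscle markers averaged 5487 FPKM in sum in dorsal, 490.0 in chin and 247 in ventral competent telogen, and 6 of 6 were higher in dorsal skin in both comparisons. Dermal fibroblast markers averaged 1241 FPKM in sum in dorsal, 1841 in chin and 6085 in ventral competent telogen. The part of these cells in the domain differences was not tested. Chin and ventral skin did not differ past the threshold in any member at this stage (0 of 9, 23% of all genes in either direction). By limma, 2 of the 9, Krt36 and Krt39, had an unadjusted p under 0.05, and the differences ran from -0.32 to 0.59 on the log2 scale. With the dorsal competent telogen and chin late anagen libraries left out, which leaves chin and ventral skin to compare, the F-test count at competent telogen was 0 of 9.

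At early anagen the order of the domains depended on the gene. Dorsal skin was lower than chin for 8 of 9 (10.3% of all genes), all but Krt35. Ventral skin was lower than chin for 6 (19.8%), with Krt35 at -3.25 ± 0.19, and higher for Krt36 (13%), at 2.28 ± 0.13. Dorsal was lower than ventral skin for 7 (14%) and higher for Krt32 and Krt35 (27.7%), with 2.70 ± 0.19 for Krt35. At mid-anagen ventral skin was lower than chin for Krt33b, Krt34 and Krt36 (3 of 9, 11.8% of all genes), and dorsal skin for Krt33b, Krt34 and Krt39 (3 of 9, 7.18%). Dorsal was lower than ventral skin for Krt34 and Krt39 (12.1%) and higher for Krt36 (16.1%).

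At late anagen dorsal and ventral skin did not differ past the threshold in any member (0 of 9 in limma, 0 also at an unadjusted p under 0.05, 3.14% of all genes in either direction). The libraries labelled chin stood apart, with Krt34 at 969 and 921 FPKM against 546, 544 and 501 in ventral and 494, 507 and 512 in dorsal skin. These chin libraries resembled those labelled dorsal competent telogen, where Krt34 was 965 and 947 FPKM. The log2 differences from chin were -0.83 ± 0.11 and -0.90 ± 0.11. The skeletal muscle markers summed to 5257 to 5440 FPKM in chin, 1032 to 1068 in ventral and 436 to 460.0 in dorsal late anagen, with 6 of 6 lower than in chin in both, and their part was not tested. In all, dorsal skin was higher than chin for 4 members (13.7% of all genes) and lower for 2 (5.78%), and ventral skin was higher for Krt31 (9.62%) and lower for Krt34 (5.99%). These calls rest on the pair of chin late anagen libraries. The count of 4 in the F-test became 1 without either of them, and 2 without the first or the third dorsal late anagen library. Without both chin libraries, with ventral and dorsal skin left to compare, it was 0.

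At catagen Krt34 was higher in dorsal than in chin (21.3% of all genes higher) and ventral skin (19%). Krt31, Krt35, Krt36 and Krt39 were lower in dorsal skin than in both, as was Krt40 against chin and Krt33b against ventral skin (5 of 9 each, 20% and 16.4% of all genes). Krt35 was 381 and 366 FPKM in dorsal skin, 1145 to 1184 in chin and 1086 and 859.6 in ventral skin. Ventral exceeded chin skin for Krt33b and Krt34 (2 of 9, 2.23%). At refractory telogen chin was the low domain. Ventral skin was higher than chin for 8 of 9 (6.06% of all genes), all but Krt39, and dorsal skin for 9 of 9 (7.61%). Krt31 was 1061 and 959.9 FPKM in ventral and 940.4 and 919 in dorsal skin, against 276, 417 and 249.7 in chin, with log2 differences of 1.72 ± 0.16 and 1.60 ± 0.16. Dorsal and ventral skin differed only for Krt40 (8.1% of all genes lower in dorsal skin), and that call was lost in 35 of the 43 fits that left out 1 library. The skeletal muscle markers, at 11517 to 18697 FPKM in chin refractory telogen, were at 961 to 1045 in ventral and 3487 to 3568 in dorsal refractory telogen, and their part in these differences was not tested.

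The make-up of the hair keratin RNA changed along with its amount. Krt35 made up 38.5% of the summed FPKM of the 9 genes in chin competent telogen, 36.4% in ventral competent telogen and 57.6% in dorsal early anagen, but 5.59% to 17.2% in all other groups except chin early anagen, at 29.0%. Krt33a took 9.96% in dorsal early anagen and 19.3% to 40.0% elsewhere. Krt34 took 0.993% in dorsal early anagen and 16.1% in dorsal catagen. Krt36 took 8.97% in ventral early anagen and at most 1.53% in the mean of any other group.

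**Figure D2:**
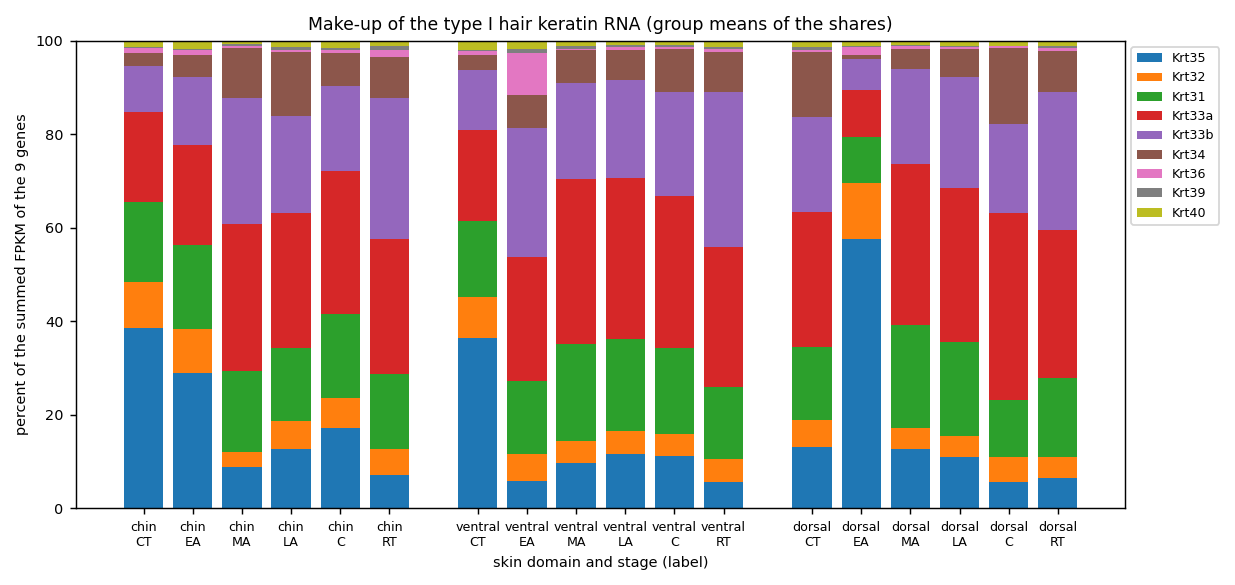
Share of each gene in the summed FPKM of the 9 type I hair keratins, in percent, as group means of the 18 domain and stage groups (2 or 3 libraries each). Krt35 holds 57.6% in dorsal early anagen and 38.5% in chin competent telogen, and Krt36 is visible in ventral early anagen at 8.97%.

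The ratio of Krt35 to Krt33b within a library showed the same groups apart. It was 8.19 and 9.37 in dorsal early anagen, 3.91 and 4.01 in chin competent telogen, 2.58 to 2.94 in ventral competent telogen and 1.86 and 2.16 in chin early anagen. In the other 34 libraries it was 0.164 to 1.03, and the lowest values belonged to ventral refractory telogen, at 0.164 and 0.183. Ventral early anagen, at 0.210 to 0.217, lay within the range of the refractory telogen libraries, which reached 0.282, and below the early anagen libraries of the other domains. The ratio of Krt32 to Krt33b was also highest in dorsal early anagen, at 1.83 in each library, and in chin competent telogen, at 1.01 and 1.03. The ratio of Krt36 to Krt33b was 0.304 to 0.349 in ventral early anagen and 0.231 and 0.235 in dorsal early anagen. Both genes were at their lowest group mean in dorsal early anagen. These ratios are given as descriptions with no test.

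**Figure D3:**
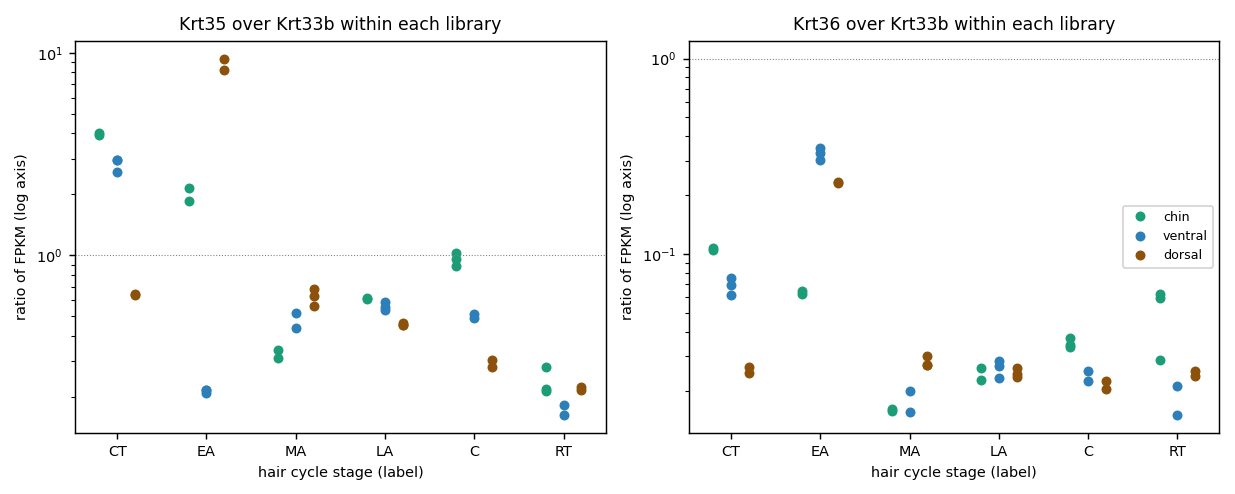
Ratio of the FPKM of Krt35 to Krt33b (left) and of Krt36 to Krt33b (right) in each of the 43 skin libraries, on log axes, by labelled stage and domain. The dotted line marks equal FPKM. Dorsal early anagen lies highest on the left at 8.19 and 9.37, and ventral early anagen highest on the right at 0.304 to 0.349.

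Over the 18 group means of log2(FPKM + 1), the 36 pairs of members correlated with a Pearson r from -0.355 to 0.972 and a median of 0.764. These points share libraries, and no test was made. Krt31 and Krt33a were the most alike, at 0.972, a pair that also shares sequence. Krt35 had a median r of 0.276 with the other members and was closest to Krt32, at 0.754. Krt36 had a median of 0.313 and was least like Krt35, at -0.355. Without Krt36 the 28 remaining pairs had a median r of 0.838. Gm11571 and Krt32 correlated at 0.774.

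**Figure D4:**
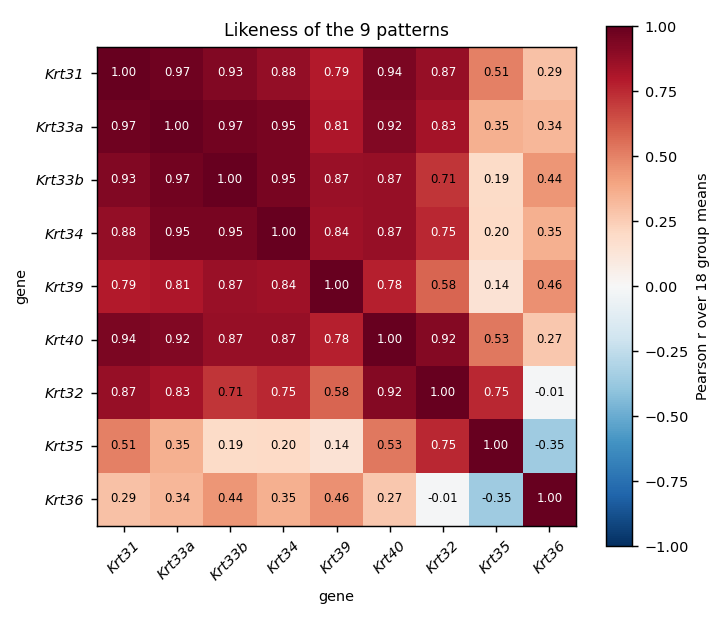
Pearson r between each pair of the 9 genes over the 18 group means of log2(FPKM + 1), as colour and number. The cortex keratins form a block of high r, up to 0.972 for Krt31 with Krt33a. The cuticle keratin Krt40 lies close to this block, with r of 0.869 to 0.938 with the cortex keratins. Krt35 and Krt36 have low r with most members and -0.355 with each other.

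Among 12061 other genes that reached 5 FPKM in a group, the 5 whose pattern was most like the mean of the 9 members were Gprc5d (r = 0.981), Krtap11-1 (0.979), 5430421N21Rik (0.972), Tgm6 (0.968) and Prr9 (0.964). Krtap11-1 encodes a keratin-associated protein of the shaft and Tgm6 a transglutaminase. The genes most like Krt35 and Krt36 alone were picked after their values had been seen. For Krt35 they were led by Dlx3, a transcription factor of the shaft lineages (r = 0.968), followed by Slc6a13 (0.958) and Ctps (0.947). For Krt36 they were Cwh43 (0.834), Krt16, a keratin of suprabasal and stressed epidermis (0.819), and Actn1 (0.814). Krt16 had its highest group mean, 503 FPKM, in ventral early anagen, as had Krt36.

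The type II partners had a similar course. Of 7 type II hair keratins listed, 5 were analysed here, and Krt81 and Krt86 were the most abundant. Krt81 was 39.9 and 48.8 FPKM in dorsal early anagen and 2136 and 3070.5 in chin mid-anagen, the same lowest and highest groups as for Krt33a and Krt33b. All 5 fell between dorsal competent telogen and early anagen, with a median log2 fold change of -5.16 against 0.25 over all genes, and all 5 rose into mid-anagen, with a median of 4.61 against -0.18. Of the 6 hair shaft partners (Dsg4, S100a3, Padi3, Krtap3-1, Krtap8-1, Krtap11-1), 6 fell and 6 rose at these steps. Of all genes, 8.24% fell at the first of these steps and 9.09% rose at the second. S100a3, a calcium-binding protein of the cuticle, went from 9433 and 9495 to 1717 and 2065 FPKM. Of the 9 inner root sheath genes 8 fell and then 8 rose. Among the 8 transcription factors 4 fell and 5 rose. Gata3, which marks the inner root sheath, was not among those that fell, at 205 and 209.8 before and 243 and 253 FPKM in early anagen.

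The proliferation genes moved the other way in dorsal skin. In early anagen 6 of 6 were higher than in competent telogen (35.2% of all genes), and 6 of 6 were lower in mid-anagen (30.1%). Cdk1, the mitotic kinase, was 43.4 and 44.1 FPKM in dorsal competent telogen and 142 and 147 in early anagen. Between chin catagen and refractory telogen all 9 type I keratins, 6 shaft partners, 9 inner root sheath genes, 6 proliferation genes, 7 of the 8 transcription factors and 4 of the 5 type II keratins fell together. Of all genes, 17.5% fell at this step. At ventral refractory against competent telogen 8 type I keratins and 4 of the 5 type II keratins were higher (8.12% of all genes). By contrast, 6 of 6 proliferation genes were lower there (34.5%).

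In the ear table the hair keratins were high in the dorsal libraries and low in telogen ear skin. Krt36, Krt39 and Krt40 passed the filter on low values only through the dorsal libraries, so that their differences from these were given by the filter and they are left out of the counts. The other 6 differed among the 3 tissues (F-test in limma, 83% of all 19299 tested genes), and the same 6 were lower in ear skin than in the dorsal libraries, against 14.6% of all genes. Krt33a was 7.98 and 8.68 FPKM in ear skin and 1975 and 1970.2 in dorsal skin, a log2 difference of -7.73 ± 0.07 (adjusted p = 1.55e-08). Krt34 differed by -8.02 ± 0.06, from 2.65 and 2.72 to 965 and 947 FPKM. Krt32 was the most abundant member in ear skin, at 9.65 and 15.9 FPKM, and differed by -4.92 ± 0.20. The dorsal group here consists of the competent telogen libraries that resembled chin late anagen. Ear skin was also far below the chin and ventral competent telogen libraries, where Krt33a was 333 to 423 FPKM. That level, however, belongs to a separately deposited table. In those libraries the proliferation genes summed to 283 to 309 FPKM (chin) and 312 to 366 (ventral), against 114 to 117 in ear skin.

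In the ear cartilage/muscle complex all 9 genes were listed at 0 in all 3 libraries, so no fold is given. The 6 members that passed the filter through ear skin too were lower than in dorsal skin (28.3% of all genes) and than in ear skin (38.5%). Krt36, Krt39 and Krt40 were at 0.18 to 0.54 FPKM in ear skin, near or below the 0.5 FPKM of the filter, and so stood close to the complex. Cartilage markers (Col2a1, Acan, Col9a1, Comp, Matn3) averaged 1521 FPKM in sum in the complex and 1.71 in ear skin. Interfollicular epidermis markers summed to 17030 to 18585 FPKM in ear skin, 3498 to 3586 in the dorsal libraries and 3.54 to 3.68 in the complex. Inner root sheath genes averaged 140 FPKM in sum in ear skin against 24201 in the dorsal libraries, so that 9 of 9 of them were lower as well. Dermal fibroblast markers summed to 10357 to 10691 FPKM in ear skin against 1241 in the dorsal libraries, 5 of 5 higher (44.7% of all genes). The part of these other cells in the ear skin levels was not tested.

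**Figure D5:**
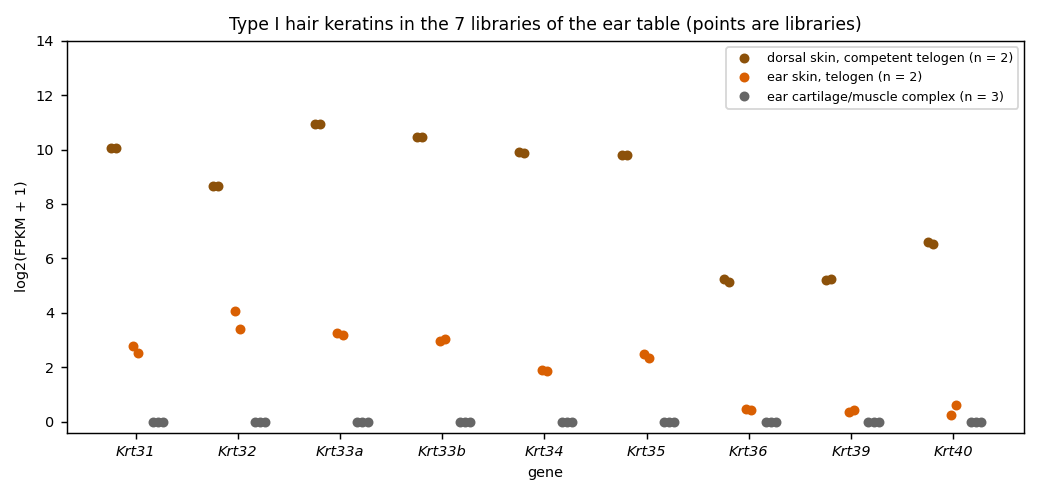
Level of each type I hair keratin on the log2(FPKM + 1) scale in the 7 libraries of the ear table. Each point is a library. The dorsal libraries lie highest, ear skin lies between with Krt36, Krt39 and Krt40 near 0, and the 3 cartilage/muscle libraries are at 0 for all 9 genes.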

How the data were processed

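The authors made the libraries with SMART-seq2 from 100 ng of total RNA, sequenced them as paired ends, quantified them with RSEM 1.2.25 on mm10 with GENCODE vM8, and deposited FPKM values that their methods call batch-effect corrected, with no batch named. The values were taken as deposited, and no counts were used here. Genes at 0.5 FPKM or more in 2 or more libraries were tested on log2(FPKM + 1), so fold changes of low genes are understated, with limma 3.58.1 (R 4.3.3), a variance trend and all groups of a table in 1 fit. Benjamini-Hochberg adjusted p-values were computed over all 21257 (skin) or 19299 (ear) genes, with a threshold of 0.05. The edgeR analysis of the study, which took FPKM as input, was not used. Comparisons were those of successive stages and the 2 telogens within a domain, and of domains within a stage. Groups came from the sample labels, and the fit was tested on simulated data. The 9 members and all gene lists were chosen with earlier results of these data known. Of each list, the 2 genes of highest mean FPKM were eligible to be named, and the genes most like the members were the 5 with the highest r. Gene positions came from GENCODE vM21, coding identities from pairwise alignment (Biopython 1.88). Depth is an estimate from the spacing of low values. Alternatives were another pseudocount (0.1), no filter or a filter at 5 FPKM, TPM or median of ratios scaling, a block for the replicate number, leaving out each library, no variance trend and dorsal refractory telogen as the dorsal group of the ear table. Leaving out the dorsal competent telogen and chin late anagen libraries was added after the data were seen. Same-numbered libraries of different groups did not deviate together (median r 0.003), so the numbers were not taken to pair them.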

Additional observations from a re-analysis of the deposited data

Results flagged for a closer look

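By the interaction test in limma, each of the 9 type I hair keratins followed a different course in the 3 domains, as did 73.3% of all genes tested. The adjusted p was 5.87e-23 for Krt34, 4.89e-16 for Krt33b, 5.14e-15 for Krt36, 4.69e-14 for Krt33a, 2.39e-13 for Krt31, 4.03e-13 for Krt35, 4.13e-12 for Krt40, 2.35e-11 for Krt39 and 4.38e-11 for Krt32. The dorsal libraries labelled competent telogen, in which no member differed from chin late anagen past the threshold, are part of this test.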

How the results depend on the processing

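No call on a member changed direction under any alternative run. The 213 comparisons of a member past the threshold include those of Krt36, Krt39 and Krt40 in the ear table. The differences of these genes from dorsal skin there were given by the filter. Of the 213, 1 was lost with a pseudocount of 0.1, 7 without the filter, 0 with a minimum of 5 FPKM, 6 with TPM, 8 with median of ratios scaling and 2 without the variance trend. With the replicate block, 1 of 186 was lost (Krt40 in dorsal against ventral refractory telogen). The block was not run on the ear table, whose ear skin columns carry no label number. Leaving out 1 library at a time lost 36 of the 213 calls at least once, and the other 177 were kept wherever they were tested. With either dorsal library of the ear table left out, Krt36 and Krt39 did not pass the filter, so their ear table calls were not tested there. Where leaving out a library leaves a group with 1 library, that group is assumed to vary like the other groups. Late anagen was least stable. There the 4 members that differed among domains became 1 to 6 and the 8 comparisons between domains became 3 to 10, both lowest without the first chin late anagen library, and the 8 became 5 with median of ratios scaling. Without the dorsal competent telogen and chin late anagen libraries, the members that differed among domains went from 8 to 0 at competent telogen and from 4 to 0 at late anagen, with only 2 domains left in each test, and 2 of the 146 calls that do not use them were lost. In the ear table, dorsal refractory telogen as the dorsal group kept 27 of 27 calls, those of Krt36, Krt39 and Krt40 included, whose differences from dorsal skin the filter gives. Groups of 2 or 3 libraries limit what the tests can separate.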
